A study of Ovis aries with 30 samples.

Results

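The genes described here are those whose expression rose and fell from lamb to lamb in the same way in the brown adipose tissue (BAT) and the thyroid tissue of the same newborn lamb. Genes were tested when they had 10 or more reads in 10 or more of the 12 libraries of each tissue, which kept 14093 of 28524 genes. For each gene the log2 normalized count of BAT was correlated with that of the thyroid over the 12 treated lambs, after the mean of the cold and of the AT group had been subtracted in each tissue, so that a difference between the treatments could not enter the correlation. The 12 lambs were Romney twins, taken indoors with dam and sibling within about a day of birth; 6 were kept for 2 days at 4 °C (cold) and 6 for 2 days at 20 to 22 °C (ambient temperature, AT). A further 3 control lambs were killed soon after they had been brought indoors, so they were younger than the treated lambs, and they were kept out of the correlation. BAT came from around the kidneys, both tissues of a lamb carry the same lamb number in the labels, and no allele or drug was part of the design. Lambs are named by group and number, and each sample is 1 library from 1 lamb.

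Some genes are set for a whole animal. Alleles that raise or lower a transcript are present in every cell and can act in several tissues, though not always in all. Signals carried in blood, such as interferons, glucocorticoids and foreign compounds that bind the aryl hydrocarbon receptor, reach all organs. Other genes follow the local state of a tissue: heat production and fat storage in brown adipocytes, hormone synthesis in thyroid follicles, and the share of muscle, nerve or gland that was cut out along with the tissue. White blood cells stand between both, because they circulate but also settle. In bulk tissue, fewer cells of a type and less RNA per cell cannot be told apart.

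The 12 BAT libraries held 31556500 to 37025998 counts and the 12 thyroid libraries 27222526 to 30124871. The unnamed genes LOC114112617 and LOC114115287 took 43.8% to 76.5% of the BAT counts and 5.95% to 14.9% of the thyroid counts, and libraries were scaled to the study's reference genes ACTB, RPL19 and HUWE1 in place of the total. TG, the thyroid hormone precursor, reached at most 0.0621% of its thyroid level in the BAT of the same lamb, and UCP1, the uncoupling protein of brown fat, at most 5.82% of its BAT level in the thyroid. These shares are rough, because the scale was set within each tissue. The UCP1 share is that of AT 6, which had the lowest UCP1 of the treated lambs in BAT (192 normalized counts). The thyroid of AT 3 stood apart: the mean log2 level of 8 skeletal muscle genes was 16.20 there and 5.0 to 7.23 in the other 11 treated thyroids. Among the controls, the thyroid of Control 1 was also high for these genes (12.96), with 7.70 in Control 2 and 5.46 in Control 3. Control 2 stood apart in other ways, with the lowest size factors of all libraries of each tissue (0.49 and 0.65). Its thyroid had 27.8% of its counts in the abundant LOC genes. It also had 7012 normalized counts of the parathyroid hormone gene PTH, against at most 121 in the other 14 thyroids. When the residuals of all genes of each BAT library were set against the 6 thyroids of its group, the thyroid of the same lamb ranked highest for 10 of 12 lambs. The exceptions were Cold 4, whose own thyroid ranked 3 of 6, and AT 3, whose own thyroid ranked 5 of 6.

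Across the 14093 genes the tissues of a lamb moved together more than the tissues of different lambs. The mean r was 0.18 (exact permutation p = 0.000224, two-sided, over all 518400 pairings of BAT and thyroid within the groups), with 0.24 in cold (exact permutation p = 0.00278) and 0.14 in AT (exact permutation p = 0.0361). Without AT 3, the lamb with the muscle-rich thyroid, the mean r was 0.24. The excess lay in the upper tail: 325 genes, 2.31% of those tested, had an r of 0.8 or more, against a median of 24 over the shuffled pairings (95% of pairings 6 to 84, one-sided exact permutation p = 1.93e-06, the smallest that 518400 pairings can give). With the RNA integrity number of each library removed as well, 168 genes reached 0.8 (exact permutation p = 6.94e-05). At the other end 49 genes, 0.348%, had an r of -0.7 or less, where the shuffled pairings gave a median of 129 (one-sided exact permutation p = 0.966), while 730 genes (5.18%) reached 0.7 or more against a median of 125 (p = 1.74e-05, same exact test).

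**Figure D1:**
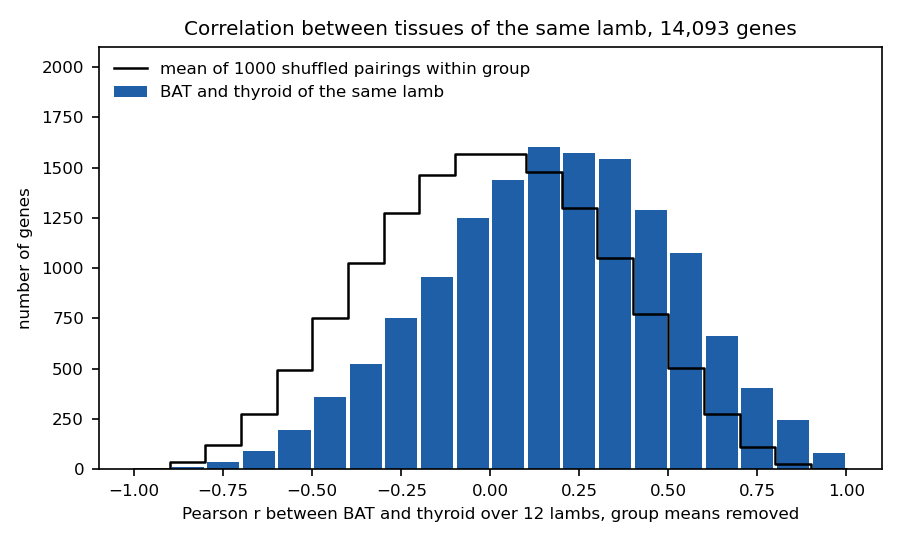
Number of genes (vertical axis) by the Pearson correlation between BAT and thyroid over the 12 treated lambs with group means removed (horizontal axis, bins of 0.1). Bars are the true pairing of tissues by lamb and the line is the mean of 1000 shuffled pairings within the groups; the bars lie right of the line, and 325 genes stand at 0.8 or more.

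Gene by gene, the exact permutation test had little room after adjustment over all 14093 genes. With Benjamini-Hochberg adjustment 0 genes passed 0.05 in either direction, and the lowest adjusted p was 0.0544, although 1331 genes (9.44%) had a positive r and 96 (0.681%) a negative r at an unadjusted p under 0.05. The same test called 2 genes with TMM size factors, 7 with median-of-ratios size factors and 47 (0.333%) when the 3 control lambs were added as a group of their own, all with positive r. A count model, which borrows the spread from all genes, called more; its calls under shuffled pairings were not computed. edgeR's quasi-likelihood F-test of the lamb terms within treatment, in 1 fit of both tissues with the lamb as a block, called 349 genes (2.48%) at an adjusted p under 0.05. All 349 had a positive r, from 0.58 to 0.99 with a median of 0.84, and 342 of them had an unadjusted exact p under 0.05. The lamb terms measure shifts that both tissues share, so a positive r follows largely from the test itself. These 349 genes are called lamb-wide below. Both tests use the same 24 libraries, so they are not independent evidence of each other. Named lamb-wide genes outside the fixed lists were chosen after their values were seen, mostly for a low p of the lamb terms.

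What the lamb-wide genes shared was partly their place in the genome. Of the 349, 183 (52.4%) carried only a LOC identifier, compared with 15.3% of the tested genes. Chromosome 20, which holds the major histocompatibility complex (MHC), had the highest share of the large chromosomes, with 34 of 423 tested genes (8.04%), 25 of them with LOC names. Another lamb-wide gene started within 100000 bases for 91 of the 344 that were on a chromosome (26.5%), and for 5.62% of the other tested genes. The paper also counted reads that map to several places, so close copies can share reads and need not be separate observations. How far shared reads bear on the neighbours and the LOC names was not tested. They also varied more, which follows largely from a test that picks genes by their shifts between lambs. The median SD between lambs of a group was 0.80 log2 units in BAT and 0.78 in the thyroid, against 0.36 and 0.30 over all tested genes. The lambs did not weigh equally: Cold 1 made the largest part of r for 96 of the 349, and without it 198 genes were called, 193 of them shared with the full set. Of the 349, 114 were called whichever lamb was left out.

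The interferon response was the gene list most shared between the tissues. These genes are switched on through STAT and IRF factors when a cell senses type I or type II interferon, and their products, such as MX1 and MX2, which trap viral nucleocapsids, and ISG15, a ubiquitin-like tag, act against viruses. All 34 tested members of the 41 listed had a positive r, from 0.50 (CMPK2) to 0.94 (MX1), with a median of 0.81 against 0.19 over all tested genes. The lamb terms were called for 27 of 34, against 2.48% of all genes. Cold 1 was far above every other lamb in both tissues: its mean log2 level over the 34 genes was 10.49 in BAT and 10.91 in the thyroid, and the other 11 treated lambs had 8.02 to 9.14 and 8.34 to 9.15. Without Cold 1 the median r of the list was 0.56, with 0.20 over all genes, and 3 of 34 members were called, namely ISG15, IFI6 and MX1. With the RNA integrity number removed the median was 0.64.

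MX1 had 801, 1672 and 8005 normalized counts as its lowest, median and highest cold BAT value and 1069, 1809 and 2112 in AT BAT. In the thyroid the same summaries were 744, 1395 and 17762 in cold and 919, 1668 and 2993 in AT. Cold 1 was the highest lamb in each tissue (8005 and 17762), Cold 2 the lowest (801 and 744), and the treatments overlapped. For MX1 r was 0.94 (95% interval 0.77 to 0.98, exact permutation p = 0.000536, adjusted p = 0.101) and Spearman's rho 0.63 (exact permutation p = 0.0482). Its r was 0.98 within cold, 0.59 within AT and 0.73 without Cold 1 and Cold 2, the pair of lambs farthest from the median in BAT. ISG15 ran from 196 to 2052 in BAT and 127 to 2535 in the thyroid of the treated lambs; r was 0.94 (95% interval 0.76 to 0.98, exact permutation p = 0.000177, adjusted p = 0.0784) and Spearman's rho 0.80 (exact permutation p = 0.00624), and r without Cold 1 was 0.82. RNF213, an interferon-induced ubiquitin ligase outside the list, kept an r of 0.95 within cold and 0.93 within AT and had 0.80 without Cold 1. These genes kept a positive r with either treatment group alone.

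Other interferon genes rested on Cold 1. WARS, the tryptophanyl-tRNA synthetase that interferon gamma induces and that is outside the list, had 7778 normalized counts in the BAT and 3937 in the thyroid of Cold 1, compared with 961 to 3305 and 779.5 to 1869.9 in the other 11 lambs. Its r of 0.67 became -0.14 without Cold 1. The chemokine CXCL10, also outside the list, stood at 410.1 and 1824 in Cold 1 and at 4.02 to 196 and 57.2 to 361 in the others, with an r of 0.84 and, without Cold 1, 0.56. Within AT, IFIT3 had an r of 0.11 after 0.92 within cold. The BAT library of Cold 1 also had a high load of the abundant LOC genes (75.5% of counts, with only AT 5 higher among the treated lambs) and the lowest size factor of the 12 (0.57); the median r of the list with TMM size factors was 0.82. For 17 macrophage and neutrophil genes the mean log2 level of Cold 1 was 7.77 in BAT and 8.33 in the thyroid. Among the treated lambs only Cold 4 was higher in BAT and only Cold 2 in the thyroid (others 6.29 to 8.66 and 7.16 to 8.37). For 7 T, B and natural killer cell genes Cold 1 had 5.28 in BAT, below only AT 2 (5.95). In the thyroid it had 5.98, below only AT 2 (7.28) and AT 3 (6.72). Whether white blood cell content bears on its interferon level was not tested.

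The control lambs had a lower mean level of the interferon list than any treated lamb, in both tissues. The mean log2 level of the 34 genes was 5.39 to 6.87 in control BAT and 6.79 to 7.55 in control thyroid, which did not overlap with the treated lambs. MX2 had 1.21, 0 and 2.83 normalized counts in the BAT of Control 1, 2 and 3, while the treated lambs ran from 92.5 to 4232. Age, housing and sampling day all separate the controls from the treated lambs and cannot be told apart.

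**Figure D2:**
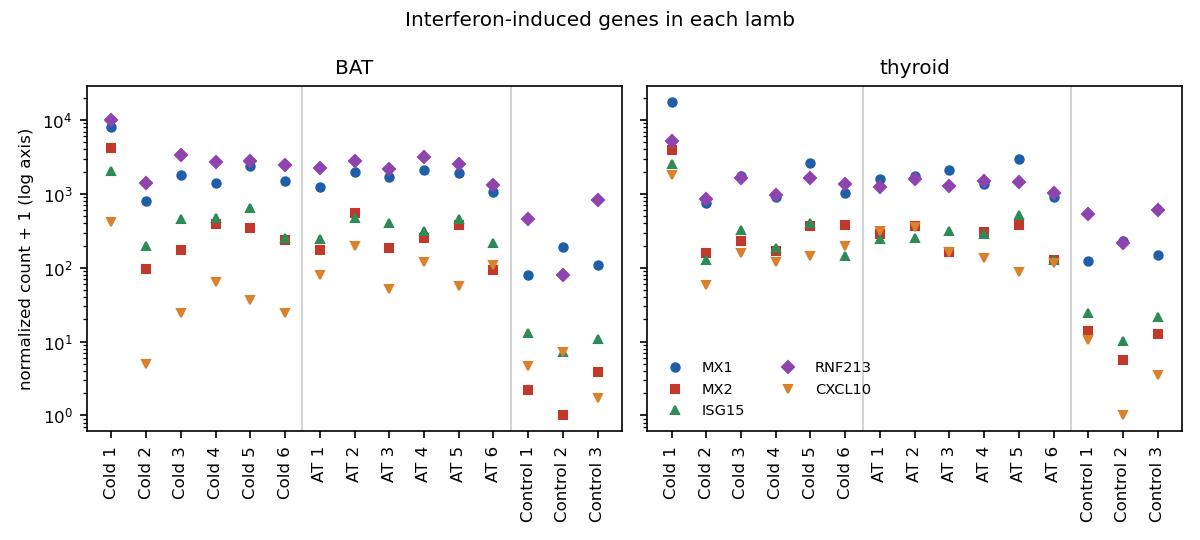
Normalized counts plus 1 (vertical log axis) of MX1, MX2, ISG15, RNF213 and CXCL10 in each of the 15 lambs (horizontal axis; vertical lines part cold, AT and control) in BAT (left) and thyroid (right). Cold 1 is the highest lamb for all 5 genes in both tissues, and the 3 controls lie at the bottom for MX1, MX2, ISG15 and RNF213.

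Antigen presentation came next. The list of 33 genes, of which 20 were tested, had a median r of 0.51, and 8 were lamb-wide: NLRC5 and CIITA, the master regulators of MHC class I and class II genes, the peptide transporters TAP1 and TAP2, the immunoproteasome subunits PSMB8, PSMB9 and PSMB10, and the invariant chain CD74. CD74 had an r of 0.62 and TAP1 0.88. At the other end the calnexin gene CANX, a general chaperone, had -0.53. Interferons induce most of these 8 genes, and Cold 1 again mattered: without it the median r of the list was 0.34 and only NLRC5 remained called (adjusted p = 0.0135, edgeR). NLRC5 had 4255 normalized counts in the BAT and 1490.5 in the thyroid of Cold 1, and AT 2 was next in both tissues (2218 and 642). CD74 showed another order, with Cold 4 highest in both tissues (3578 and 32635) and 346 to 1956 and 4903 to 23499 in the other treated lambs.

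Among the MHC genes of chromosome 20 the lambs fell apart by large factors. OVAR, a gene of the MHC region (chr20:30663000-30666169, Oar_rambouillet_v1.0), had 730.5, 4575 and 8761 normalized counts (lowest, median, highest) in cold BAT and 335, 7509.8 and 9909 in AT BAT. The thyroid values were 389, 2448 and 11582 in cold and 324, 4127 and 5509.6 in AT. AT 1 was the lowest lamb in BAT and thyroid (335 and 324), Cold 4 the second lowest (730.5 and 389), and no other treated lamb came under 2220.4 in BAT or 1837 in the thyroid. For OVAR r was 0.94 (95% interval 0.77 to 0.98, exact permutation p = 0.00066, adjusted p = 0.108) and Spearman's rho 0.71 (exact permutation p = 0.0202); its r was 0.92 within cold, 0.97 within AT and 0.67 without Cold 4 and AT 1, the pair of lambs farthest from the median in BAT. DQB, a class II gene, split the lambs in another way: Cold 4 was highest in both tissues (257 and 1735) and AT 3 lowest (2.11 and 40.3), with an r of 0.75. MHC genes are close copies of each other and differ between animals, so the reads assigned to a given copy are uncertain.

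A further set of genes stood at separate levels, with the same lambs at each level in both tissues. The widest gap between neighbouring lambs in BAT was at least 2 log2 units for these genes, and the same lambs lay on each side of a gap of at least 2 log2 units in the thyroid. This held for 20 of 14093 genes (0.142%), all 20 among the lamb-wide genes and 18 with LOC names, C1H21orf58 and MX2 being the others. They were picked by their values, so the counts are a description.

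LOC114108752 and LOC114116052 abut on chromosome 8 (chr8:2701669-2714773 and chr8:2664899-2701669) and split the lambs identically. LOC114108752 had 433 to 765 normalized counts in the BAT of Cold 5, AT 1, AT 2, AT 3, AT 4 and AT 6 and 32.4 to 51.3 in the other 6 treated lambs. In the thyroid the same lambs had 1133 to 1403 and 76.5 to 129. The controls, which took no part in the choice, fell on the same levels: Control 1 was low (29.1 and 131), and Control 2 and Control 3 were high in BAT (331 and 608) and thyroid (1571 and 1594). For LOC114108752 r was 0.98 (95% interval 0.91 to 0.99, exact permutation p = 0.0207, adjusted p = 0.354) and Spearman's rho 0.37 (exact permutation p = 0.274); its r was 0.97 within cold, 0.98 within AT and 0.98 without Cold 6 and AT 4, the pair of lambs farthest from the median in BAT. The high level was held by 1 of 6 cold lambs (Cold 5) and 5 of 6 AT lambs (all but AT 5). With group means removed, r therefore rests largely on Cold 5 and AT 5, also within each group. Neither belongs to the pair left out above, so the r without that pair does not remove them. The cold-to-AT contrast of this gene was not called in BAT (log2 difference -1.97, adjusted p = 0.355, edgeR).

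LOC105616215 (chr10:79879742-79916930) had the highest r of all tested genes. Its BAT counts were 689 in Cold 1 and 642 in AT 3, and 1.24 to 133 in the other treated lambs; the thyroid counts were 716, 564 and 2.90 to 107. These lambs were the 2 highest in each tissue. For LOC105616215 r was 0.99 (95% interval 0.95 to 0.996, exact permutation p = 3.86e-06, adjusted p = 0.0544) and Spearman's rho 0.97 (exact permutation p = 4.24e-05). Its r was 0.99 within cold, 0.97 within AT and 0.97 without Cold 1 and AT 3, the pair of lambs farthest from the median in BAT. The high lambs here were not the high lambs of the chromosome 8 genes, apart from AT 3.

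Other genes of this kind were missing in 1 lamb. LOC101120999 (chr3:220374551-220394234) had 0 normalized counts in the BAT of AT 1 and 0.8005 in its thyroid, compared with 116 to 462 and 83.6 to 186 in the other 11 treated lambs. LOC114114058, its neighbour (chr3:220396829-220399221), was low in the same lamb, at 2.82 and 0.8005 against 56.9 to 216 and 34.8 to 113. On chromosome 8, LOC114116075 (chr8:36924588-36970444) was at 0 in both tissues of AT 5 and at 34.9 to 164 in BAT and 30.7 to 276 in the thyroid of the others. The nearby LOC114108725 (chr8:37133224-37151507) was lowest in AT 5 too (19.4 and 0). For such genes r can rest on the missing lamb. Without Cold 2 and AT 1, the lambs farthest from the median, r of LOC101120999 went from 0.98 to 0.73. Its lowest r with 1 lamb left out was 0.55, and within cold, which does not hold AT 1, r was 0.48. The lowest r with 1 lamb left out was 0.43 for LOC114114058 (without AT 1) and 0.59 for LOC114116075, but 0.86 for LOC114108725. With a smaller gap, the X-linked LOC114111346 (chrX:104481596-104483479) was low in Cold 2 (106 and 516) and AT 2 (83.6 and 456), and the other 10 treated lambs had 229 to 384 and 1219 to 2625. Control 2 was low as well (69.5 and 196).

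Several genes with known functions followed the lamb in the same manner, with smaller steps. SRD5A3, a polyprenol reductase of protein glycosylation, was lowest in Cold 1 and Cold 5 in both tissues, at 163 and 173 in BAT and 273 and 249 in the thyroid, followed by AT 5 (355 and 479.5); for this gene r was 0.94 (95% interval 0.79 to 0.99, exact permutation p = 0.000372, adjusted p = 0.0862) and Spearman's rho 0.89 (exact permutation p = 0.0011). TRAPPC11, a subunit of the vesicle-tethering TRAPP complex, was highest in Cold 1, Cold 4, AT 1 and AT 5, with 791 to 1172 in BAT and 1825 to 2244 in the thyroid, above 279 to 436 and 843 to 955 in the other 8 lambs. The 4 lambs did not overlap with the 8 in either tissue, and r was 0.95 with 0.90 without AT 1 and AT 5. MRTFB, a coactivator of serum response factor, was highest in Cold 3 (9435 and 13120) and next in AT 6 (5012 and 7841); without these, the lambs farthest from the median, r went from 0.91 to 0.25. IQCB1, a ciliary protein, had its 3 highest lambs, Cold 5, AT 2 and AT 4, in common between the tissues (248 to 599 in BAT, 819 to 964 in the thyroid), with an r of 0.92. ACAD9, an assembly factor of respiratory complex I, had the same 4 highest lambs, Cold 4, Cold 6, AT 1 and AT 5, in both tissues, with 1921 to 3908 in BAT and 3194 to 5444 in the thyroid (r = 0.87). FANCD2, of the Fanconi anaemia DNA repair pathway, had an r of 0.91 and, without AT 1 and AT 2, 0.92. The edgeR adjusted p of the lamb terms for these 6 genes lay between 7.97e-05 and 0.001, and each was still called without Cold 1.

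**Figure D3:**
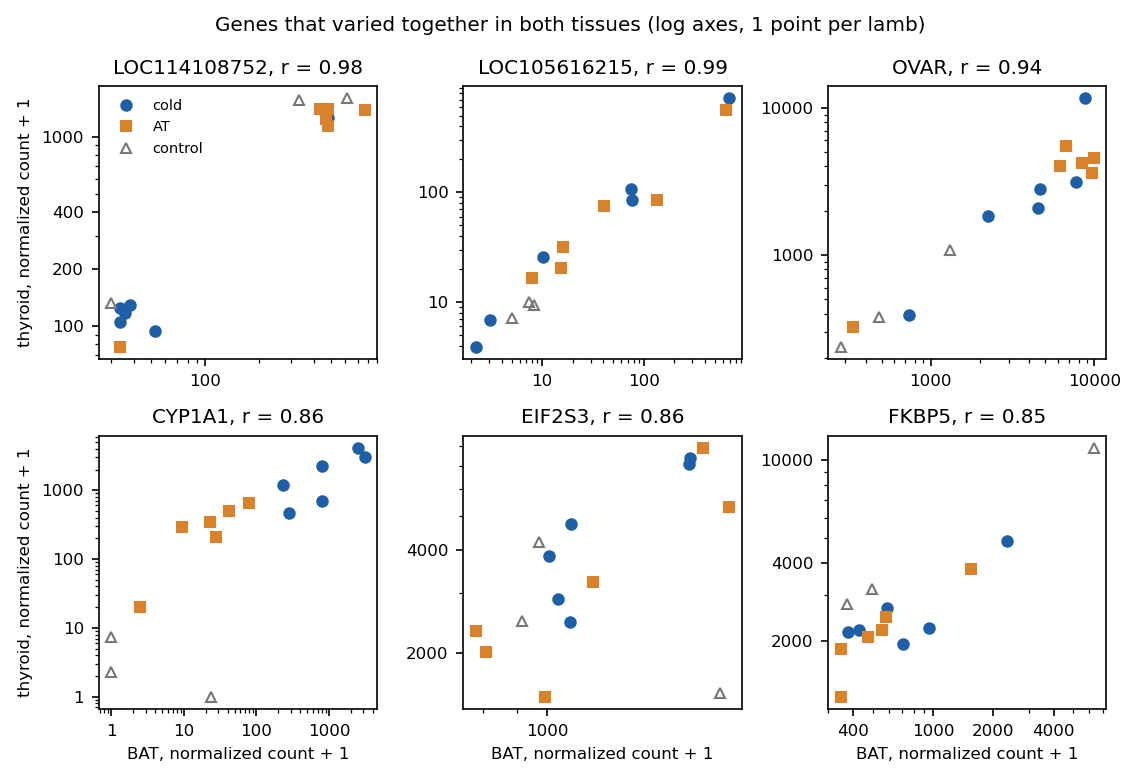
Normalized count plus 1 in the thyroid (vertical log axis) against BAT (horizontal log axis) of the same lamb for LOC114108752, LOC105616215, OVAR, CYP1A1, EIF2S3 and FKBP5; each point is a lamb, cold as circles, AT as squares, controls as open triangles, and r is over the 12 treated lambs with group means removed. The points of LOC114108752 form 2 clumps, CYP1A1 lies higher in cold, and 4 treated lambs lie apart for EIF2S3.

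CYP1A1 was lamb-wide and also differed between the treatments in BAT. It encodes a cytochrome P450 that the aryl hydrocarbon receptor induces after exposure to aromatic compounds. In BAT its lowest, median and highest values were 233, 804 and 3108 normalized counts in cold and 1.49, 24.3 and 78.0 in AT, so that the groups did not overlap. In the thyroid they were 469.9, 1713 and 4072 in cold and 19.4, 319 and 657 in AT, which did overlap. Cold 3 and Cold 4 were the 2 highest lambs in each tissue, and AT 5 the lowest treated lamb (1.49 and 19.4). With the group means removed r was 0.86 (95% interval 0.53 to 0.96, exact permutation p = 0.00161, adjusted p = 0.142) and Spearman's rho 0.74 (exact permutation p = 0.0143). Its r was 0.78 within cold, 0.91 within AT and 0.71 without Cold 3 and AT 5, the pair of lambs farthest from the median in BAT. The cold-to-AT contrast was called in BAT (log2 difference 5.44 ± 0.83 SE, adjusted p = 0.0216, edgeR) and not in the thyroid (2.53 ± 0.71, adjusted p = 0.867); the difference between the tissues, called for 1 of all genes (0.0071%), was not called for CYP1A1 (adjusted p = 0.0747, edgeR with the lamb as a block). The call in BAT was lost without Cold 3, Cold 4, AT 1 or AT 3, when edgeR called 0 genes in BAT. The controls had at most 22.5 normalized counts in either tissue, and with them added r was 0.46. Of the other 17 tested genes of glutathione and xenobiotic metabolism none was lamb-wide, and the median r of the list was 0.15.

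Glucocorticoid targets were split. Cortisol acts on all organs through the glucocorticoid receptor, and FKBP5, a co-chaperone that dampens that receptor, and ZBTB16, a transcription factor, are among its most responsive targets. Both were lamb-wide, 2 of 26 tested members where 2.48% of all genes were, while the median r of the list was 0.17, close to that of all genes. FKBP5 was highest in Cold 2 and AT 4 of their groups in both tissues: 2343 and 1552 normalized counts in BAT, where the other 10 lambs had 345 to 954, and 4885 and 3812 in the thyroid, where they had 1219 to 2692. ZBTB16 had the same 2 lambs on top, at 2693 and 5822 in BAT and 7080.3 and 3688 in the thyroid. For FKBP5 r was 0.85 (95% interval 0.51 to 0.96, exact permutation p = 0.003, adjusted p = 0.176) and Spearman's rho 0.77 (exact permutation p = 0.00979), and without Cold 2 and AT 4, the lambs farthest from the median, r was 0.41. For ZBTB16 r went from 0.65 to 0.23 without Cold 2 and AT 4. Control 2, whose libraries stood apart, had the highest FKBP5 of all 15 lambs in both tissues (6335 and 11104). DUSP1, a phosphatase that glucocorticoids and stress kinases both induce, moved in opposite directions in the tissues (r = -0.76, exact permutation p = 0.00258, adjusted p = 0.161).

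White and red blood cell genes gave 1 or 2 lamb-wide members a list, where 2.48% of all tested genes were called. Of the 7 tested T, B and natural killer cell genes CD3E and LCK, which belong to the T cell receptor signal, were called, and the list's median r was 0.42. CD3E was highest in AT 2 in both tissues (88.9 and 406) and ran from 6.59 to 38.9 and 15.7 to 124 in the other treated lambs. Among 17 macrophage and neutrophil genes the scavenger receptor MARCO and the pan-leukocyte phosphatase PTPRC were called, and the median was 0.32. MARCO had 13.6, 51.7 and 1105 (lowest, median, highest) in cold BAT and 6.78, 21.8 and 127 in cold thyroid, with Cold 4 on top in both; for MARCO r was 0.84 (95% interval 0.47 to 0.96, exact permutation p = 0.00128, adjusted p = 0.133) and Spearman's rho 0.83 (exact permutation p = 0.00385). PTPRC was highest in Cold 4 in BAT (517) but in AT 2 in the thyroid (629). The beta-globin gene HBB, the only called member of 5 tested erythroid genes, whose median r was -0.21, had its 2 highest BAT values in Cold 4 and AT 3 (5129 and 4522), while AT 3, AT 1 and Cold 4 were highest in the thyroid (1615, 1389.7 and 1202; r = 0.76, and 0.37 without Cold 4 and AT 3). Globin genes are close copies of each other, so their split of reads is uncertain.

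EIF2S3 marked 4 lambs. It encodes a subunit of translation initiation factor eIF2, lies on the X chromosome (chrX:23702311-23717599) and in many mammals has a Y-linked counterpart and escapes X inactivation. Cold 3, Cold 6, AT 1 and AT 6 had 1637 to 1882 normalized counts in BAT and 5336 to 7891 in the thyroid, and the other 8 treated lambs had 779 to 1172 and 1495 to 4743, without overlap. For EIF2S3 r was 0.86 (95% interval 0.54 to 0.96, exact permutation p = 0.00231, adjusted p = 0.158) and Spearman's rho 0.74 (exact permutation p = 0.0143), and its r was 0.86 within cold, 0.86 within AT and 0.73 without AT 1 and AT 6, the pair of lambs farthest from the median in BAT. KDM6A, another gene of that kind, was highest in Cold 3, Cold 6 and AT 6 in the thyroid but in Cold 3, AT 1 and Cold 6 in BAT, where AT 6 (639) lay below AT 4 (744) (r = 0.70, exact permutation p = 0.0396, adjusted p = 0.455), and its lamb terms were not called (edgeR adjusted p = 0.065). Under the alternative settings r of KDM6A ran from 0.33 in AT alone to 0.87 with TMM size factors. The median r of the 16 tested genes of this list was 0.14, down to -0.46 for TBL1X. Each group held lambs of both sexes. In cold and in AT alike, the females were as many as the lambs with high EIF2S3, which is a match of counts only. Other genes of that kind went both ways. In BAT, KDM5C was lowest of the AT lambs in AT 6 (1310) and AT 1 (1577). USP9X in BAT was highest of the cold lambs in Cold 3 (1890) and Cold 6 (1716). The labels give no sex per lamb, so whether these are the same lambs is not known, and sex was not tested. Control 2 had 1824 in BAT, within the range of the 4 high lambs, and 1534 in the thyroid, within that of the low lambs.

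Most other lists held no lamb-wide gene, where a list at the share of all genes (2.48%) would hold few. None of the members tested was called among the lists of oxidative phosphorylation (44 genes, median r 0.06), cytosolic ribosomal proteins (71, -0.03), ribosome biogenesis (44, 0.15), mitosis and DNA replication (41, 0.19), immediate early genes (27, 0.06), heat shock chaperones (22, -0.01), endoplasmic reticulum chaperones (24, 0.02), amino acid stress targets of ATF4 (23, -0.01), the hypoxia response (25, -0.03), lipogenesis (19, 0.09), fasting and PPAR alpha targets (21, 0.09), thyroid hormone receptors and responsive genes (17, 0.05) the growth hormone axis (20, 0.02), skeletal muscle (8, 0.18) or parathyroid and C cells (5, -0.03). Several of these medians depended on AT 3, the lamb with the muscle-rich thyroid: without it they were 0.31 for the ATF4 targets, 0.27 for heat shock, 0.35 for ribosome biogenesis, 0.31 for skeletal muscle, 0.13 for endoplasmic reticulum chaperones, 0.12 for hypoxia, -0.15 for ribosomal proteins and 0.27 for all genes. With TMM size factors the median of the ribosomal proteins was 0.10 in place of -0.03, and that of all genes 0.14 in place of 0.19. Such lists do not show that a function acts locally, since with 12 lambs an r near 0 has a wide interval, such as -0.63 to 0.57 (95%) for PCK1.

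Other lists lay at or above the median of all genes with no called member. The 22 tested genes of cholesterol synthesis had a median r of 0.34 (0.24 with TMM), from -0.42 for DHCR7 to 0.70 for ACAT2, and 0 were called. The 4 genes of the list of cold-inducible RNA-binding proteins, which also holds RTN3, a reticulon of the endoplasmic reticulum, had 0.50 (0.34 with TMM), from 0.19 for RTN3 to 0.64 for SRSF5. Metallothioneins and metal transport (8 genes, median 0.31) and acute phase genes (9 genes, 0.27) went to 0.14 and 0.02 without Cold 1. The clock genes had a median of 0.19 (0.05 with TMM), level with all genes, with ARNTL, the core activator of the clock, highest at 0.80 and NPAS2 lowest at -0.41. The 18 collagens had 0.24. Below the median of all genes, the 24 endothelial genes had 0.12, and LYVE1, the hyaluronan receptor of lymph vessels, was called. With the controls added their median was 0.59, and Control 2 had the lowest mean log2 level of the list in BAT (9.42, against 10.70 to 11.54 in the other 14 lambs) and in the thyroid (9.94, against 9.98 to 11.11).

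**Figure D4:**
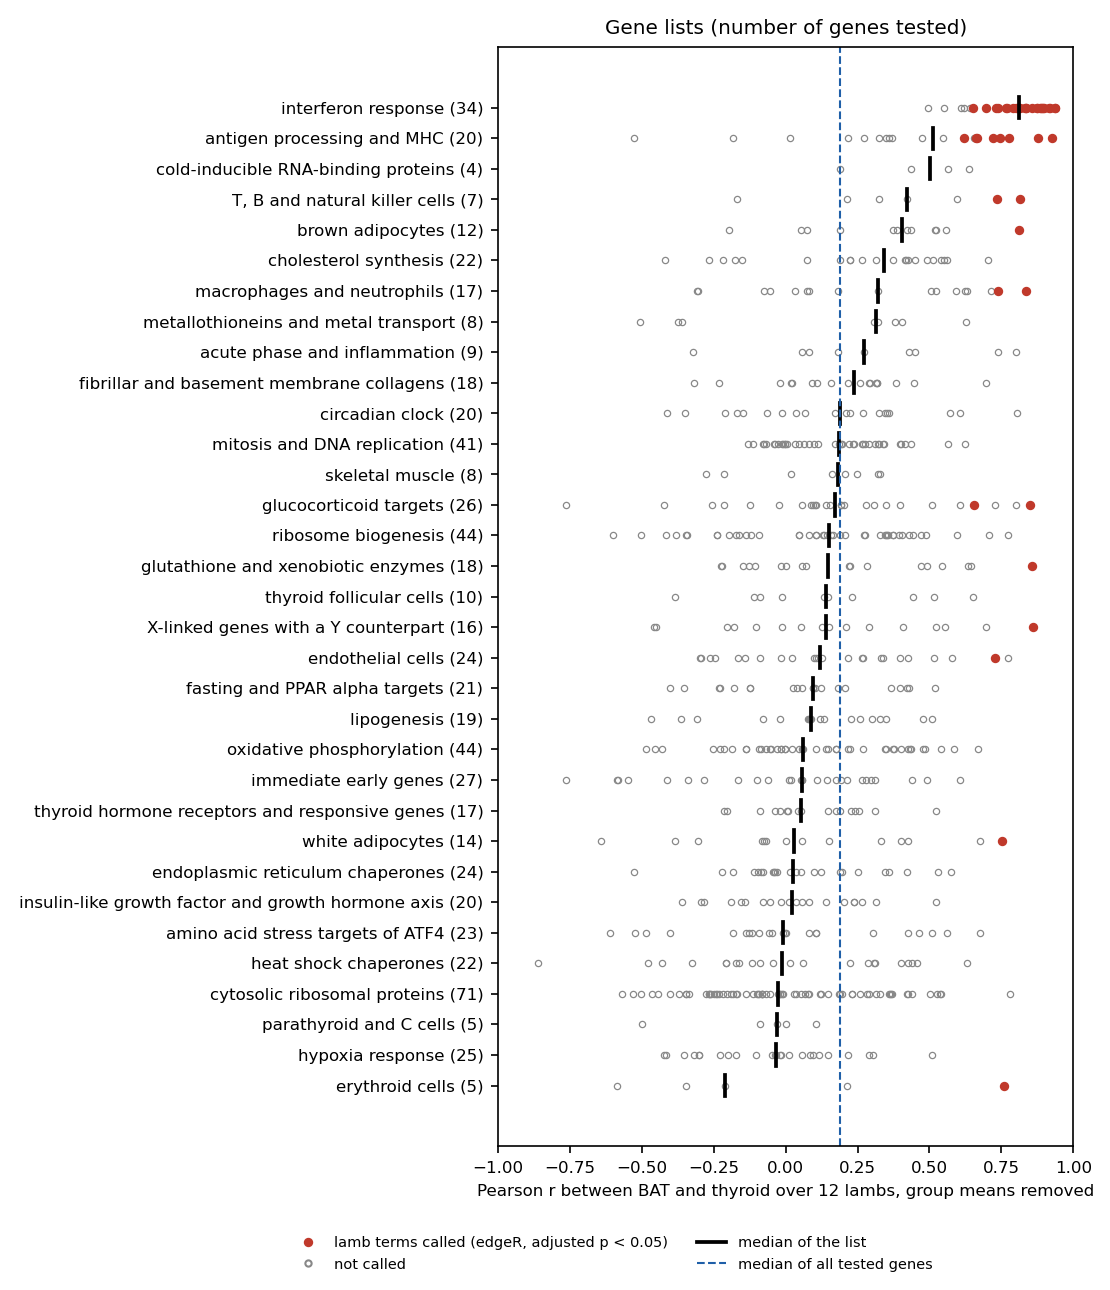
Pearson r between BAT and thyroid (horizontal axis) of every tested gene of 33 lists (1 line each, number of tested genes in brackets); filled points have called lamb terms, open points do not, bars are list medians and the dashed line is the median of all 14093 genes (0.19). The interferon list lies at the top with a median of 0.81, and from the hypoxia response to the thyroid hormone genes the medians lie near 0.

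Genes that define each tissue gave mixed values. TG, expressed at a high level in the thyroid and close to absent in BAT, had an r of 0.23 (exact permutation p = 0.494, adjusted p = 0.884). The deiodinase DIO2, which makes active thyroid hormone inside brown adipocytes, ran from 19.2 to 976 in BAT and 17.6 to 107 in the thyroid, and r was 0.05, with 0.74 within cold and -0.19 within AT. UCP1 had too few thyroid reads to be tested; in BAT it ran from 192 to 12308, lowest in AT 6, and in the thyroid from 2.90 to 152, lowest in Cold 3. The brown adipocyte list had a median r of 0.40 over 12 genes, which fell to 0.24 without AT 3, when that of all genes was 0.27, and its called member was EPSTI1, which is also on the interferon list. The white adipocyte list had 0.03 over 14 genes (-0.10 to 0.46 with 1 lamb left out) and 1 called, the complement factor CFD. The 10 tested thyroid follicular genes had 0.14. The reference genes ACTB, RPL19 and HUWE1, whose counts set the scale, had 0.04, 0.08 and -0.27.

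The 10 named genes with wide variation in both tissues and an r between -0.2 and 0.2 were MYOZ2, CACNA1S, SPP1, SCG3, MYOM3, FOSB, RPRM, CNTN2, MYBPH and PCK1. Muscle genes were 4 of them (MYOZ2, CACNA1S, MYOM3 and MYBPH), and their wide variation in the thyroid rested on AT 3. That thyroid had 32995 normalized counts of MYOZ2, 17537 of CACNA1S and 25533 of MYOM3. The other treated thyroids had 6.19 to 37.9, 10.6 to 159 and 15.9 to 52.1. MYBPH, a myosin-binding protein, had 28547 normalized counts in the thyroid of AT 3 and 81.7 to 329 in the other treated thyroids, while the BAT of AT 3, at 139, was within the range of 34.8 to 273. SCG3, a granin of hormone-storing granules, varied in the thyroid from 44.7 to 10546, with AT 4 and Cold 4 highest, and in BAT from 12.4 to 111. Neither order was matched in the other tissue (r = -0.09). PCK1, the gluconeogenic and glyceroneogenic enzyme, ran from 55.0 to 1115 in BAT and 11.1 to 164 in the thyroid with an r of -0.05 (95% interval -0.63 to 0.57). FOSB, an immediate early gene, was highest in Cold 1 in both tissues (463 and 895) yet had 0.18 over all 12 lambs. SPP1, a matrix protein of activated macrophages, was highest in AT 6 in BAT (958) and in AT 3 in the thyroid (739).

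Opposite movement was rare, and no gene with a negative r was called by the exact permutation test or the edgeR lamb terms. ANGPT1, the angiopoietin that steadies blood vessels, had the lowest r: it ran from 214 to 519 in BAT and 440.3 to 964 in the thyroid, the lambs high in BAT being low in the thyroid. For ANGPT1 r was -0.90 (95% interval -0.98 to -0.67, exact permutation p = 0.000235, adjusted p = 0.0791) and Spearman's rho -0.83 (exact permutation p = 0.00385), and its r was -0.81 within cold, -0.97 within AT and -0.87 without AT 1 and AT 3, the pair of lambs farthest from the median in BAT. With the first principal component of each tissue removed, r was -0.47. Only 1 gene had an r of -0.9 or less, and the shuffled pairings gave a median of 1 (one-sided exact permutation p = 0.707). HSPB1, a small heat shock protein that muscle holds in large amounts, had -0.86, but that value rested on AT 3, with 72425 normalized counts in the thyroid and 2607 in BAT. The other 11 treated lambs had 6934 to 8791 and 3738 to 5341, and without AT 3 r was -0.06.

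**Figure D5:**
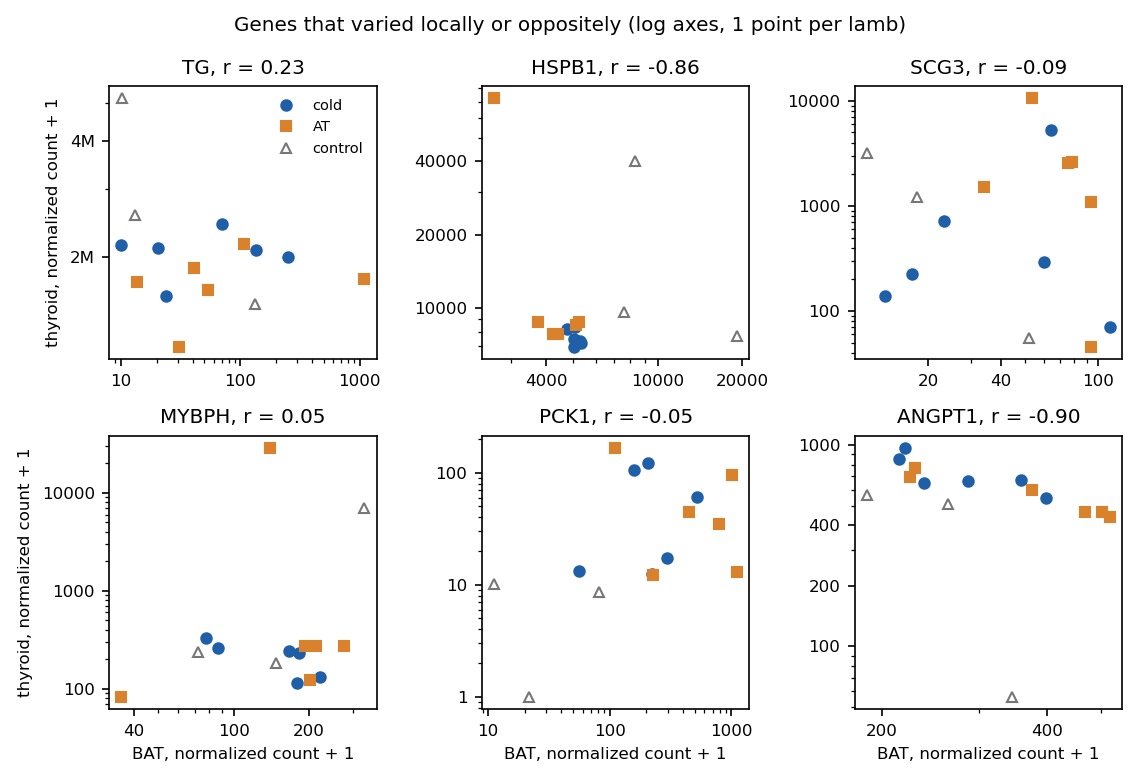
Normalized count plus 1 in the thyroid (vertical log axis) against BAT (horizontal log axis) of the same lamb for TG, HSPB1, SCG3, MYBPH, PCK1 and ANGPT1; each point is a lamb, cold as circles, AT as squares, controls as open triangles, and r is over the 12 treated lambs with group means removed. AT 3 stands alone at the top for HSPB1 and MYBPH, and ANGPT1 falls from left to right in the treated lambs.

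The control lambs gave a look at animals that the correlation had not used. In 112 of 347 lamb-wide genes without ties (32.3%) the 3 controls came in the same order in BAT and thyroid, compared with 22.8% of all tested genes. With 3 animals this is a description without a test.

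The lamb-wide genes differed between the treatments about as often as all tested genes. Of the 349, 1 differed between cold and AT in BAT, CYP1A1, when 30 of all 14093 tested genes did (0.213%, 22 of them or 0.156% higher in cold as CYP1A1 was, edgeR adjusted p under 0.05), and 37 (10.6%) had an unadjusted p under 0.05, beside 11.9% of all genes. In the thyroid 0 genes were called by edgeR, with 14 of the 349 (4.01%) and 800 of all genes (5.68%) at an unadjusted p under 0.05, and 7 genes by DESeq2. MX1 was 0.67 ± 0.45 log2 units higher in cold BAT and 1.21 ± 0.78 in cold thyroid, neither past the threshold (edgeR adjusted p = 0.559 and 0.878); Cold 1 belongs to that group. The count for BAT depended on single lambs and ranged from 0 to 142 when 1 of the 12 was left out (0 without Cold 3, Cold 4, AT 1 or AT 3, 1 without AT 5, 11 to 13 without Cold 1, Cold 2 or Cold 5, 71 without AT 2 and 142 without AT 6).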

How the data were processed

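RNA-seq libraries of BAT and thyroid tissue from 12 treated and 3 control lambs were used (30 libraries). The authors deposited 1 table of raw read counts per gene; the submitters' processing notes name FastQC 0.11.9, Trimmomatic 0.39, STAR 2.7.7a and featureCounts of Subread 2.0.0, and the positions in the table are those of Oar_rambouillet_v1.0. Here 14093 genes with 10 or more reads in 10 or more of the 12 treated libraries of each tissue were kept. Counts were divided by size factors from ACTB, RPL19 and HUWE1 within each tissue, so that levels are not comparable between tissues or between genes of different length, and log2(normalized count + 1) was used. Group means were removed and Pearson's r was tested exactly over all 518400 pairings within the groups (two-sided), with Benjamini-Hochberg adjustment over all genes; the tests of the number of genes past an r threshold, the alternatives of the lamb terms, the lists without Cold 1 or AT 3 and the genes at separate levels were chosen after seeing the data. The 95% interval of r uses Fisher's transformation with 1 degree of freedom less for the additional group mean. edgeR 4.0.16 (robust quasi-likelihood F-test, R 4.3.3) tested the lamb terms in 1 fit of 24 libraries and cold against AT per tissue; DESeq2 1.42.0 was an alternative. These tests were run on simulated counts with known answers first.

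The lamb numbers in the labels pair the libraries by animal. The members and gene lists were chosen with earlier results of these data known. Named genes were, by rule, the highest and lowest r of each list, a fixed set (such as TG and CYP1A1) and 10 locally varying genes; the rule's part for genes called by the exact test gave none. Chromosome names were taken from the symbols that the table shares with RefSeq. A list of 4 X inactivation genes, XIST included, had 0 genes under those names in the table. Lambs of a group are separate animals, each with 1 library per tissue. RNA integrity numbers, used as a covariate in 1 alternative, came from the study's supplement. Exact p-values compare the true pairing of the tissues with the shuffled pairings within the groups. For the lamb terms, shifts that both tissues share are set against the disagreement between the tissues of a lamb. The p-values of cold against AT per tissue rest on the spread between lambs of a group. Some named genes are not reported here. The 30 counts columns all belong to the samples, and 0 others were left aside.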

Additional observations from a re-analysis of the deposited data

Results flagged for a closer look

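For the 53 genes whose levels were followed by lamb, the log2 levels of the 6 lambs of each group and tissue were searched for a lamb set apart from the rest, with a gap to its neighbour, as a share of the group's range, above Dixon's 95% critical value for 6 samples. That gave 41 of 212 groups, where chance flags about 1 in 20; many genes were named because lambs stood apart, so the number is no test. The values are normalized counts. Cold 1 stood apart from the other cold lambs as the highest in BAT for MX2 (4232), highest in thyroid for MX2 (3904), IFIT3 (3448), RNF213 (5263), CXCL10 (1824), WARS (3937) and NLRC5 (1491), and lowest in BAT for LOC114108725 (476). Cold 2 stood apart from the other cold lambs as the highest in thyroid for FKBP5 (4885). Cold 3 stood apart from the other cold lambs as the highest in BAT for MRTFB (9435), and highest in thyroid for MRTFB (13120). Cold 5 stood apart from the other cold lambs as the highest in BAT for LOC114108752 (477) and LOC114116052 (865), and highest in thyroid for LOC114108752 (1253), LOC114116052 (3032) and IQCB1 (819). AT 1 stood apart from the other AT lambs as the lowest in BAT for OVAR (335), LOC101120999 (0) and LOC114114058 (2.82), and lowest in thyroid for OVAR (324), LOC101120999 (0.8005) and LOC114114058 (0.8005). AT 2 stood apart from the other AT lambs as the highest in BAT for PSMB8 (1897) and PSMB9 (1008), lowest in BAT for LOC114111346 (83.6), and lowest in thyroid for LOC114111346 (456). AT 3 stood apart from the other AT lambs as the highest in thyroid for HSPB1 (72420), SPP1 (739) and MYBPH (28550). AT 4 stood apart from the other AT lambs as the highest in BAT for FKBP5 (1552) and ZBTB16 (5822). AT 5 stood apart from the other AT lambs as the highest in BAT for RPL19 (12260), lowest in BAT for LOC114108752 (32.8), LOC114116052 (16.4) and LOC114116075 (0), and lowest in thyroid for LOC114108752 (76.5), LOC114116052 (42.2), LOC101121371 (79.2), LOC114108725 (0) and CYP1A1 (19.4). AT 6 stood apart from the other AT lambs as the lowest in BAT for MYBPH (34.8).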

How the results depend on the processing

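The exact test's 0 positive calls became 2 with TMM, 7 with median-of-ratios size factors, 2 with a pseudocount of 10, 47 with the controls added and 103 when the group means were not removed (2 negative there), and 349 by the edgeR lamb terms, the fit with the replicate block, since lamb numbers pair the libraries by animal; it was 0 under the stricter filter, no filter, Spearman, RNA integrity removed, the first principal component removed, in either group alone and without any lamb. The mean r stayed positive with p under 0.05 in all these alternatives, from 0.14 to 0.24. The 325 genes at r of 0.8 or more became 216 with the stricter filter (fewer genes tested) and 168 with RNA integrity removed, each above the shuffled pairings (exact permutation p = 3.86e-06 and 6.94e-05); the cause of the latter was not tested. Leaving out 1 lamb gave 306 to 441. The edgeR lamb terms called 378 genes with TMM and 387 with median-of-ratios, and 198 (without Cold 1) to 439 (without AT 3) with 1 lamb left out. Cold against AT in BAT, 30 genes, became 70 with TMM, 225 with DESeq2, and 0 to 142 with 1 lamb left out; the tissue by treatment term, another question, fitted with the replicate block, called 1 gene. In the thyroid, 0 became 7 with DESeq2 and was 0 with each lamb left out. Of 39 named lamb-wide genes 38 kept a positive r under every alternative. The exception was WARS (-0.14 without Cold 1 to 0.85 without AT 3, -0.49 in AT alone and -0.37 without the 2 farthest lambs). These genes were called by a test that favours a positive r, so a kept sign on the same lambs says little. The size of r varied more, with a lowest value of 0.11 for IFIT3 and 0.17 for CD74 (both AT alone). That value was 0.23 for LOC114116052 (Spearman) and 0.25 for MRTFB (without the 2 farthest lambs). It was still 0.84 for SRD5A3 (controls added) and 0.86 for LOC105616215 (first principal component removed). Of 264 list medians under alternatives 6 moved by more than the SD of r within the list. With 12 lambs weak sharing was not detectable for single genes.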

Other observations

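The genes called by the exact test only when the 3 control lambs were added held some that the edgeR lamb terms did not call. Of the 47, 34 were also called by the lamb terms and 30 had LOC names. NR3C2, the mineralocorticoid receptor, had an r of 0.81 over the 12 treated lambs and 0.95 over all 15 (exact permutation, adjusted p = 0.0224), and KAT7, a histone acetyltransferase, 0.86 and 0.84 (adjusted p = 0.0286, same test); neither had called lamb terms (edgeR adjusted p = 0.23 and 0.552). For NR3C2 the rise goes with Control 2, whose libraries stood apart: it had 16.4 normalized counts in BAT and 195 in the thyroid, against 82.4 to 242 and 628 to 1259 in the other 14 lambs. These names were chosen after their values were seen.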
